A study of Mus musculus with 4 samples.

Results

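Upk3b, Upk1b, Msln, Krt19, Krt8, Krt18 and Cdh1 are 7 genes in common use as markers of the coelomic epithelium and of mesothelium. They were taken by name, with earlier results of these data known, from the 21495 genes of a single-cell RNA-seq count table of mouse gonads with the attached mesonephros. All 7 were found in the table. Their levels were compared between 2 deposited cell types, the epithelium of the gonad (coelomic epithelium, 5157 cells) and the epithelium of the mesonephros (4533 cells), and then between these epithelia and the cell types that form later.

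There were 4 samples, each alone in its group: controls of both sexes at E11.5 (XY control, XX control), and XY gonads without the miR-17~92 microRNA cluster at E11.5 (E11.5 KO) and at E11.75 (E11.75 KO), all labelled as C57BL/6 x 129S4/SvJae. Both alleles of the cluster were deleted in every cell of the KO embryos. Where 4 values follow each other, they stand for XY control, E11.5 KO, E11.75 KO and XX control in this order. KO embryos were grown by tetraploid aggregation from CRISPR-edited G4 embryonic stem cells, an F1 hybrid line, and XY controls came from the unedited parental line, whereas XX control embryos were bred. Several pairs of gonads were pooled for each sample and fixed in methanol, so no spread between embryos was measured. Calls of a 2-fold difference and intervals therefore describe these libraries, and no p-value could be given. Stage and deletion cannot be told apart where E11.75 KO is set against the XY control, and sex, breeding, depth and cell filtering cannot be told apart in the XX comparison.

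The samples held 3669 to 23527 cells and 37841392 to 105192238 UMIs. XX cells were deeper, at a median of 15509 UMIs against 3893 to 4763 in the XY samples. Each sample came from 2 technical runs, except E11.75 KO with 1. Which KO sample is the earlier follows the deposited labels, whereas the study's methods list the cell numbers of the KO samples in the opposite order. Sertoli cells, which appear as the testis forms, numbered 24 of 17057 cells in the sample labelled E11.5 KO and 168 of 8492 in that labelled E11.75 KO. Of 52400 barcodes, 285 occurred in more than 1 sample. Mir17hg, the host transcript of the deleted cluster, was at 19.8, 156, 161 and 18.2 CPM. These 3′ reads do not show whether the microRNAs themselves were present. The mesonephric epithelium of E11.75 KO also held more neural crest marker UMIs (4 genes, 73.3 CPM in sum against 14.8 to 21.3 in the other samples) and more Sertoli marker UMIs (5 genes, 84 against 23.9 to 40.5). Their part in the results for that pool was not tested. In coelomic epithelium the summed markers of other cell types ranged over samples from 34.1 to 46.5 CPM for tubules, 43.7 to 76.3 for endothelial cells, 17.9 to 45.2 for Sertoli cells, 637 to 883 for interstitial progenitors, 3.57 to 8.07 for neural crest, 7.92 to 16 for adrenal cortex, 28.8 to 62.8 for germ cells, 3.65 to 20.9 for immune cells and 188 to 535 for erythroid cells.

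The coelomic epithelium is the sheet of mesoderm that covers the urogenital ridge. On the gonadal side its cells divide, leave the surface and give rise to supporting and interstitial progenitors, while over the rest of the body cavity the same sheet matures into mesothelium. Simple epithelia of this kind carry keratin filaments built from obligate pairs of a type II chain, such as Krt8, and a type I chain, such as Krt18 or Krt19. Uroplakins are membrane proteins best known from the bladder surface, where Upk1b, a tetraspanin, pairs with a single-pass partner of the Upk3 family. Mesothelin (Msln) is a surface protein of mature mesothelium, and E-cadherin (Cdh1) is the adhesion molecule of most epithelia.

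In the data the 7 genes did not form a single set. Upk3b, Upk1b and Krt19 were high in both epithelia and low in every other deposited cell type taken as a whole. A cluster within the mesonephric mesenchyme, described at the end, held more Upk3b, and Krt19 near its level in coelomic epithelium. Krt8 and Krt18 were present in both epithelia and also in the mesonephric tubules, where Krt8 was 1.48 to 3.31 times and Krt18 0.81 to 1.32 times the level of mesonephric epithelium, and both were present in pre-supporting cells too. Msln and Cdh1 were close to absent from both epithelia in all 4 samples, so their RNA counts did not mark these epithelia at this stage and depth. Protein was not measured here. Since the cell types are clusters formed with these genes among others, differences between types are descriptions and carry no test.

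**Figure D1:**
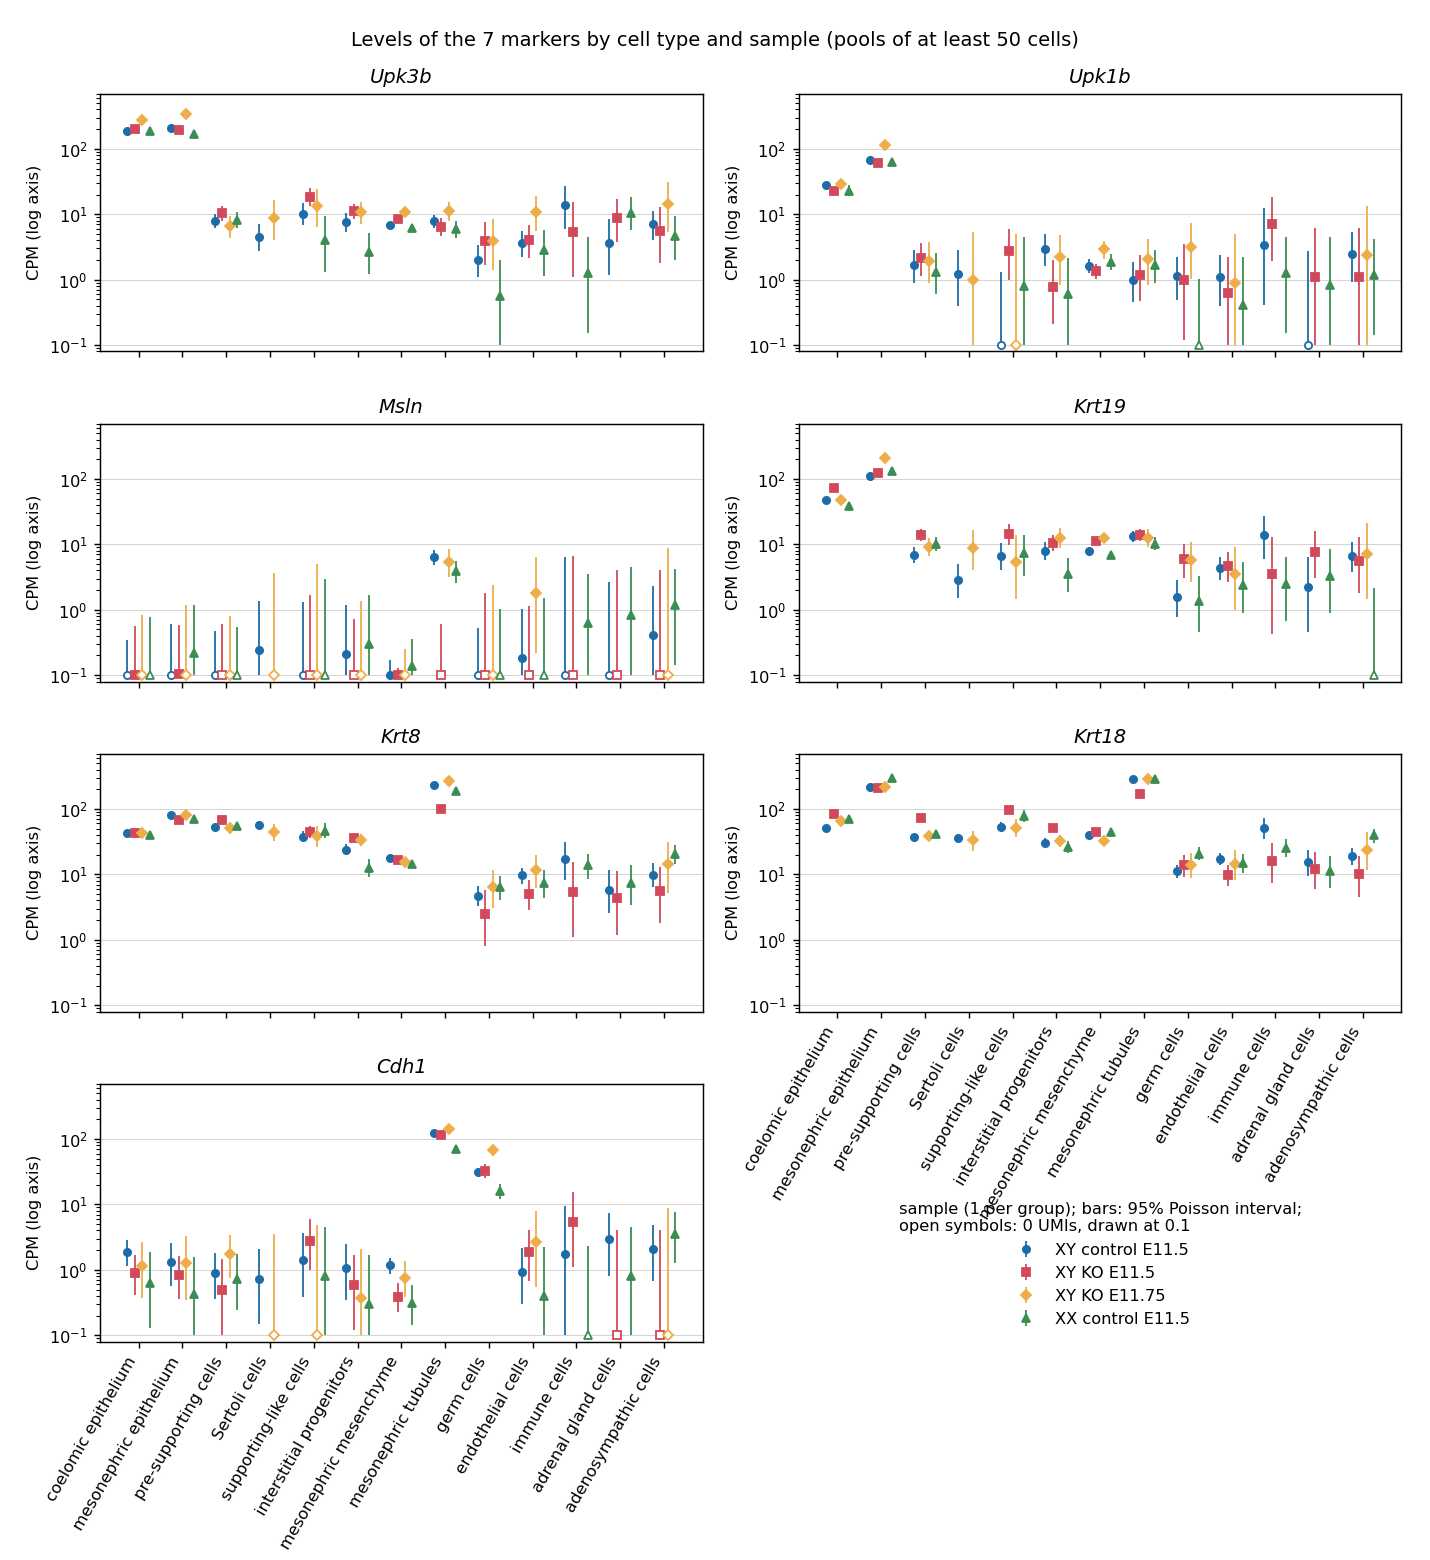
Level of each of the 7 markers (CPM, UMIs of the gene scaled to the total of the pool, log axis) in each deposited cell type and sample, over pools of at least 50 cells; points are single samples and bars are 95% Poisson intervals, with pools at 0 UMIs drawn as open symbols at 0.1. Upk3b, Upk1b and Krt19 peak in both epithelia, Krt8 and Krt18 also in the tubules, and Cdh1 in tubules and germ cells.

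Upk3b (chr5:136038496-136046487, plus strand, GRCm38) was high only in the epithelia when cell types were taken as a whole. Levels are in CPM, counts per 1000000 UMIs of all genes in the cells pooled. The sequence around its RefSeq start is shown because it is the marker that the results for the epithelia turn on. Those of Krt8 and Krt18 are shown because this pair of genes moved together across cell types. Each line runs from 250 bases before to 50 bases after the RefSeq start (GRCm38.p6). Capitals mark matches to any of 6 short motifs searched on both strands: TATAAA, known as the TATA box; the GC box, GGGCGG; an E-box bound by Snail and Zeb factors, CAGGTG; a motif of TEAD factors, GGAATG; a motif of GATA factors, AGATAA; and the AP-1 motif, which reads TGACTCA.
Upk3b (chr5:136038246-136038545, plus strand): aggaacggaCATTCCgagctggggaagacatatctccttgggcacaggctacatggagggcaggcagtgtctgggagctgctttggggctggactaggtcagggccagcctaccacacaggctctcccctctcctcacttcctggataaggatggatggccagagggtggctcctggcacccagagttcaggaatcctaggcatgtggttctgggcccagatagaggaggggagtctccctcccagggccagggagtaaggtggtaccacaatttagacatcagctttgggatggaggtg
Krt8 (chr15:102004293-102004592, minus strand): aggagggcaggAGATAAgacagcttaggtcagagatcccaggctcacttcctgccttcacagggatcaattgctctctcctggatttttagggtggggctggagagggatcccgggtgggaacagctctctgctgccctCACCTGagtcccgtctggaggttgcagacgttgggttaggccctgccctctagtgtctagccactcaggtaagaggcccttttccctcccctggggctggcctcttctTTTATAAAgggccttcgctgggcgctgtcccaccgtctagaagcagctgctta
Krt18 (chr15:102027966-102028265, plus strand): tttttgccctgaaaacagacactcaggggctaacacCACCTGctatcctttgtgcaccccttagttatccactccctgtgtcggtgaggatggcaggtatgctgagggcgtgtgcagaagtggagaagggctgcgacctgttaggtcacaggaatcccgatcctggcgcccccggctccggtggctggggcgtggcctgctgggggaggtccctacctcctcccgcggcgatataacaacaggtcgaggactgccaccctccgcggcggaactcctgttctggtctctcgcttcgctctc
The Upk3b window held GGAATG on its reverse strand, a word also present in 14.66% of 32851 promoters of this length. Krt8 held TATAAA, on both strands of 1 overlapping stretch, with CAGGTG on the reverse strand and AGATAA. The TATAAA matches began at positions -3 and -1 and ran over the RefSeq start. Annotated gene spans of Krt8 (up to 102004482, minus strand) and Krt18 (from 102028180) begin before the RefSeq start, so more of these windows lies within the genes. Krt18 held CAGGTG, again on the reverse strand. Among all promoters 13.62% held TATAAA, 20.21% CAGGTG and 11.18% AGATAA. A match describes the letters only. The GC content of the windows was 58.67% for Upk3b, 58% for Krt8 and 61.33% for Krt18, against a median of 52.67% over all promoters.

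Upk3b stood at 190 CPM in coelomic epithelium of the XY control, 198 in E11.5 KO, 273 in E11.75 KO and 191 in the XX control. In mesonephric epithelium it stood at 206, 193, 341 and 170 CPM in the same order. The ranges of both epithelia overlapped. The log2 ratio of coelomic over mesonephric epithelium was -0.12 (95% interval -0.22 to -0.02), 0.04 (-0.05 to 0.13), -0.32 (-0.44 to -0.20) and 0.17 (0.03 to 0.31), so that its sign differed between samples. In the XY control the sign also differed between technical runs, at -0.23 in the first run and 0.02 in the second. Intervals here and below cover counting error only.

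Outside the epithelia Upk3b was low. Its highest value in any of the 40 other pools of at least 50 cells was 18.6 CPM, in supporting-like cells of E11.5 KO, against a lowest epithelial value of 170 CPM. Endothelial cells, which should lack the gene, held 2.83 to 10.7 CPM, so the values of 6.54 to 10.3 CPM in pre-supporting cells lay within the range of endothelial cells over all samples. Within a sample the pre-supporting value was 0.59 to 2.75 times the endothelial one.

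Upk1b (chr16:38773184-38800328, minus strand), the tetraspanin partner, had the same 2 sites of expression at lower level and with a difference between them. Coelomic epithelium held 27.6, 22.3, 29 and 22.9 CPM, and mesonephric epithelium held 68.2, 59.9, 113 and 63.8 CPM. The groups of pools did not overlap, and the mesonephric value was 2.47 to 3.9 times the gonadal one. Every other pool of at least 50 cells was at 7.11 CPM or lower, and that highest value came from immune cells of E11.5 KO.

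Of the other uroplakins, Upk2 had 0 UMIs in both epithelia of all samples. Upk1a was at 0.2 to 0.91 CPM in coelomic epithelium and Upk3bl reached at most 0.84 CPM. Upk3a, a bladder partner of Upk1b, was not among the table's genes. Of 5 uroplakins in the table, 2 (Upk3b and Upk1b) were above 1 CPM in these epithelia.

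Krt19 (chr11:100140810-100148665, minus strand), a type I keratin, followed the uroplakins. It stood at 47.7, 71.5, 48 and 38 CPM in coelomic epithelium, and at 112, 123, 210 and 131 CPM in mesonephric epithelium. The mesonephric value was higher in each of the 4 samples, by 1.72 to 4.38 times. The smallest gap was in E11.5 KO, where the log2 ratio of coelomic over mesonephric epithelium was -0.78 (-0.92 to -0.65), and the largest in E11.75 KO, at -2.13 (-2.36 to -1.91). Other pools of at least 50 cells reached at most 14.5 CPM, in supporting-like cells of E11.5 KO. Within a sample, pre-supporting cells held 1.58 to 3.9 times the Krt19 level of endothelial cells.

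Krt8 (chr15:101996698-102004482, minus strand) was nearly level in coelomic epithelium, at 42.6, 42.9, 42.5 and 40.1 CPM. Mesonephric epithelium held 79.7, 68.1, 81.2 and 69.2 CPM, which was 1.59 to 1.91 times as much. Its partner Krt18 (chr15:102028180-102032027, plus strand) differed more. It stood at 52, 84.2, 65.8 and 69.2 CPM in coelomic epithelium and at 217, 206, 214 and 298 CPM in mesonephric epithelium, 2.44 to 4.3 times the gonadal value. The 2 genes are neighbours on chromosome 15, with 23697 bases between them, and are transcribed away from each other. A processed copy of Krt8 lies elsewhere in the genome, so a part of its reads could have been assigned there or discarded.

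Across all genes, 144 of 8390 with at least 100 UMIs over both epithelia in every sample were at least 2-fold higher in coelomic than in mesonephric epithelium in all 4 samples, which is 1.72%. None of the 5 markers tested (Upk3b, Upk1b, Krt19, Krt8 and Krt18) was among them. In the other direction 142 genes were at least 2-fold lower in coelomic epithelium, which is 1.69%, and 2 of the 5 markers were among these, Upk1b and Krt18. Krt19 missed this count through E11.5 KO alone. Without that sample, left out after its value was seen, 3 of 5 would be counted. The 1.69% is for all 4 samples and is no background for that count. Msln and Cdh1 lay under the minimum of 100 UMIs.

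**Figure D2:**
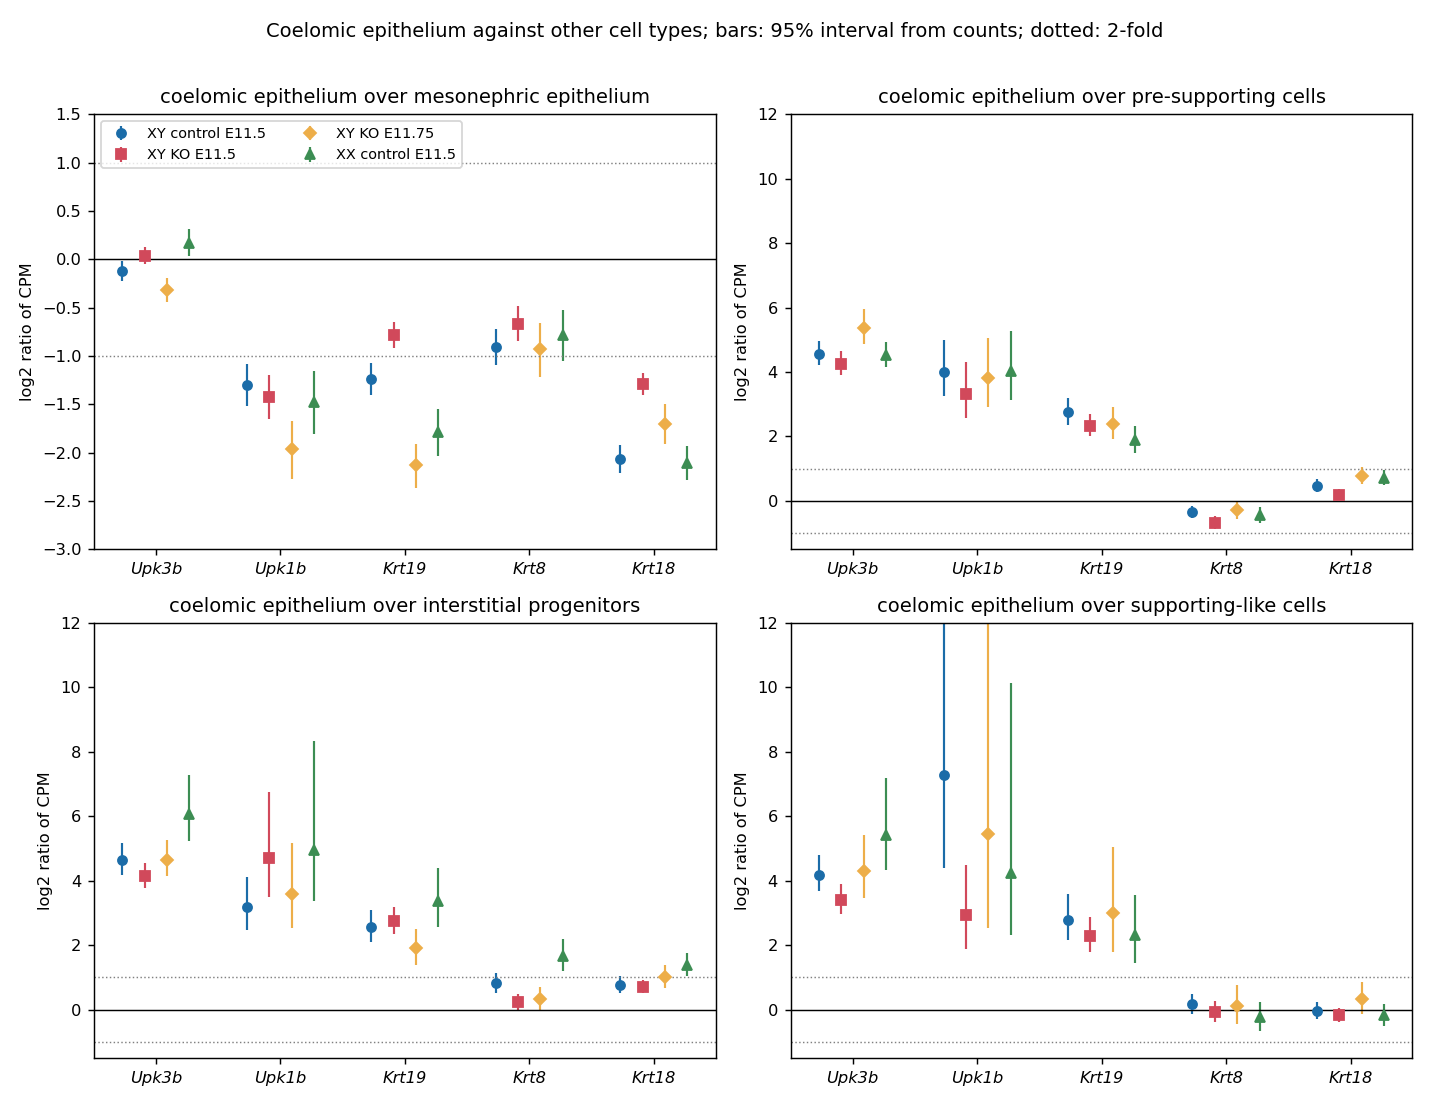
Log2 ratio of the 5 detected markers in coelomic epithelium over each of 4 other cell types, for each sample; points are samples and bars are 95% intervals from counts, ended at the top of the axis where a pool has few UMIs or none. Against mesonephric epithelium Upk3b lies near 0 and the other 4 lie below 0, whereas against pre-supporting cells, interstitial progenitors and supporting-like cells Upk3b, Upk1b and Krt19 lie at 1.90 or higher and Krt8 and Krt18 between -0.68 and 1.67.

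The second question is what becomes of the markers in lineages that the coelomic epithelium gives rise to. Pre-supporting cells are the precursors of Sertoli and granulosa cells. In them Upk3b, Upk1b and Krt19 were 19.1 to 41.2 times, 10 to 16.4 times and 3.72 to 6.78 times lower than in coelomic epithelium. Few UMIs lay behind the lower values, and the folds moved with the technical run. In single runs the log2 ratio was 5.84 and 3.89 for Upk3b and 3.13 and 1.02 for Krt19 in the XX control, 3.48 and 2.11 for Krt19 and 4.68 and 3.44 for Upk1b in the XY control, and 4.61 and 2.70 for Upk1b in E11.5 KO. Upk3b, Upk1b and Krt19 were 3 of the 5 markers tested, while 382 of 8828 genes, or 4.33%, were at least 2-fold higher in coelomic epithelium than in pre-supporting cells in all samples. Krt8 and Krt18 were not counted. Krt8 was higher in pre-supporting cells, at 53.8, 68.7, 51.9 and 54.1 CPM, so that the log2 ratio of coelomic epithelium over pre-supporting cells was -0.34 (-0.53 to -0.14), -0.68 (-0.88 to -0.48), -0.29 (-0.57 to -0.00) and -0.43 (-0.69 to -0.17). Endothelial cells held 4.99 to 11.6 CPM of Krt8, below every pre-supporting pool. Krt18 was at 37.3 to 73.3 CPM in pre-supporting cells, against 9.66 to 17.3 in endothelial cells.

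Both keratins were found in the supporting lineage. Sertoli cells, which surround the germ cells in the testis, held 57.3 CPM of Krt8 in the XY control (752 cells) and 43.8 in E11.75 KO (168 cells); the other samples had fewer than 50 such cells. Krt18 was at 35.6 and 33.1 CPM in the same pools. Supporting-like cells, a population near the rete, held 37.8 to 46.8 CPM of Krt8 and 52.1 to 94.8 CPM of Krt18. Interstitial progenitors, which lead to steroid-producing and stromal cells, were lower and more variable in Krt8, at 24 CPM in the XY control, 36.3 and 33.8 in the KO samples and 12.5 in the XX control.

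The balance of the keratin pair differed between cell types. In mesonephric epithelium 2.72, 3.02, 2.64 and 4.31 Krt18 UMIs were counted per Krt8 UMI. Coelomic epithelium gave 1.22, 1.96, 1.55 and 1.72, and pre-supporting cells 0.69, 1.07, 0.74 and 0.78. Sertoli cells of the XY control gave 0.62 (95% interval 0.50 to 0.77). The order mesonephric epithelium, coelomic epithelium, pre-supporting cells held in each of the 4 samples, and their counting intervals did not overlap within a sample. Values like those of the epithelia were also found elsewhere. Mesonephric mesenchyme gave 2.27, 2.74, 2.125 and 3.12. Supporting-like cells gave 1.34 to 2.11, tubules 1.05 to 1.67 and endothelial cells 1.23 to 2.06. The value is a ratio of UMIs, which depends on how well each 3′ end was captured, so it is read between cell types and not as the stoichiometry of the filament.

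**Figure D3:**
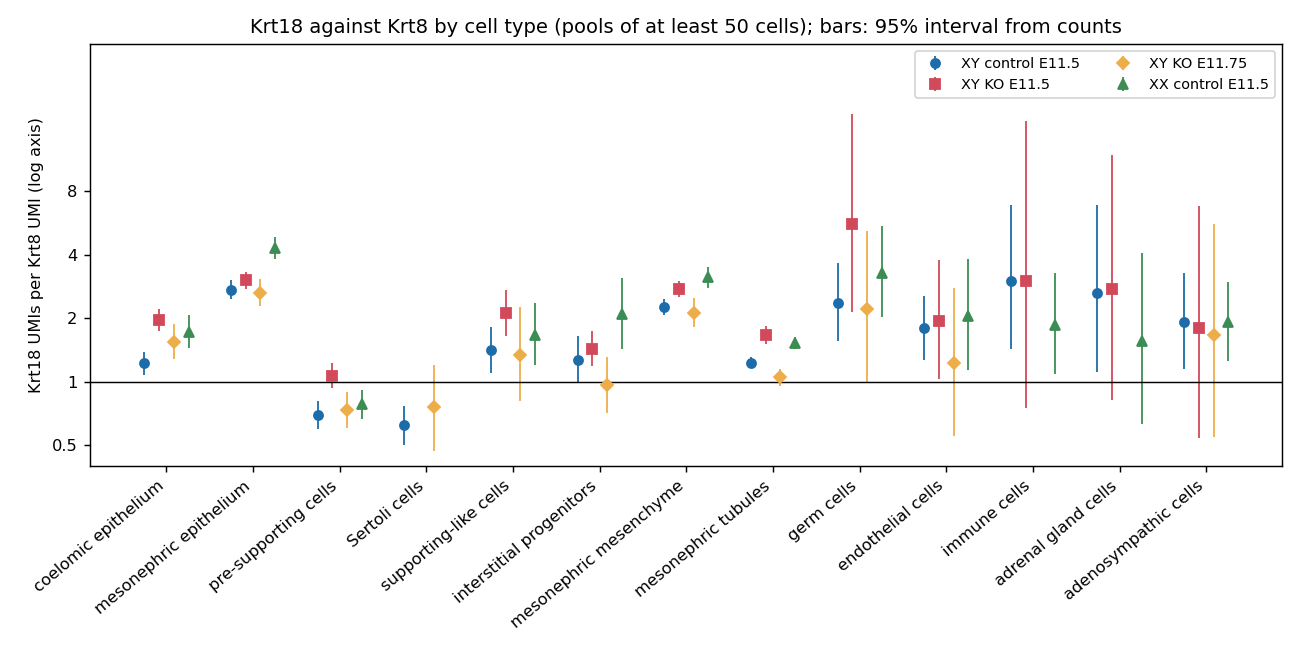
Krt18 UMIs per Krt8 UMI (log axis) by cell type and sample, over pools of at least 50 cells, with bars for the 95% interval from counts. Mesonephric epithelium lies above coelomic epithelium and coelomic epithelium above pre-supporting cells in each of the 4 samples.

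Cdh1 (chr8:106603351-106670246, plus strand) was carried by other epithelia. Coelomic epithelium held 20, 9, 5 and 3 Cdh1 UMIs, or 0.63 to 1.85 CPM, and mesonephric epithelium 8, 8, 4 and 2 UMIs, or 0.43 to 1.30 CPM. Endothelial cells were at 0.4 to 2.68 CPM, so Cdh1 in both epithelia was not distinguishable from background at this depth. Mesonephric tubules held 125, 114, 144 and 70.8 CPM, and germ cells, which carry E-cadherin before and after they settle in the gonad, held 31.7, 32.3, 68 and 15.8 CPM. N-cadherin (Cdh2), its mesodermal counterpart, was at 80.2 to 94.8 CPM in coelomic epithelium and at 182 to 243 CPM in mesonephric epithelium.

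Msln (chr17:25748613-25754378, minus strand) had 0, 1, 0 and 0 UMIs in coelomic epithelium and 0, 1, 0 and 1 in mesonephric epithelium. The limit that a count of 0 allows (3 counts) was 0.28 to 0.69 CPM in coelomic epithelium. Its UMIs were found instead in the mesonephric tubules, where 57, 0, 18 and 30 were counted.

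The deposited annotation splits the tubules into 3 clusters, and the markers lay in them unevenly. This split was looked at after the values of the whole tubule pool had been seen. Cluster 1 held the duct marker Gata3 at 269 to 518 CPM, against 22 to 31.8 in cluster 3 and 1.76 to 15.2 in cluster 2. Krt8 stood at 445, 497, 468 and 417 CPM in cluster 1, at 179, 91.4, 335 and 169 in cluster 3, and at 8.81 to 21.1 in cluster 2. Krt18 stood at 584, 707, 580 and 671 CPM in cluster 1 and at 163 to 258 in cluster 3. Cdh1 was at 89.2 to 248 CPM in cluster 1 and at 134 to 185 in cluster 3, with at most 1.76 in cluster 2.

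Msln lay almost wholly in cluster 1, with 54 of the 57 tubule UMIs of the XY control and all of those of E11.75 KO and the XX control. Cluster 1 made up 31.3% of tubule cells in the XY control, 33.4% in E11.75 KO and 25.5% in the XX control, but 4.78% (44 of 920 cells) in E11.5 KO. The 0 Msln UMIs in those 44 cells allow up to 7.97 CPM, below the 18.5 CPM (13.9 to 24.2) of the XY control. Whole-tubule levels in E11.5 KO were lower for Krt8, at 100 against 234 CPM in the control (log2 ratio -1.22, -1.35 to -1.09), and for Krt18, at 167 against 287 CPM (-0.78, -0.89 to -0.68). Within cluster 1 neither was lower in that sample, while within cluster 3 Krt8 was at 91.4 against 179 CPM and Krt18 at 163 against 195. The smaller share of cluster 1 moved with the whole-tubule values, and its part in them was not tested beyond these within-cluster levels. Ratios in tubules are given without the median or share of all genes beside them, also for Krt8, whose whole-tubule ratio passed 2-fold. Markers of other cell types also differed. In tubules of E11.5 KO and the control they summed to 540 and 352 CPM for pre-supporting cells and 256 and 475 for erythroid cells. For germ cells they summed to 30.5 and 70.8 and for immune cells to 5.83 and 20.5, and their part was not tested.

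**Figure D4:**
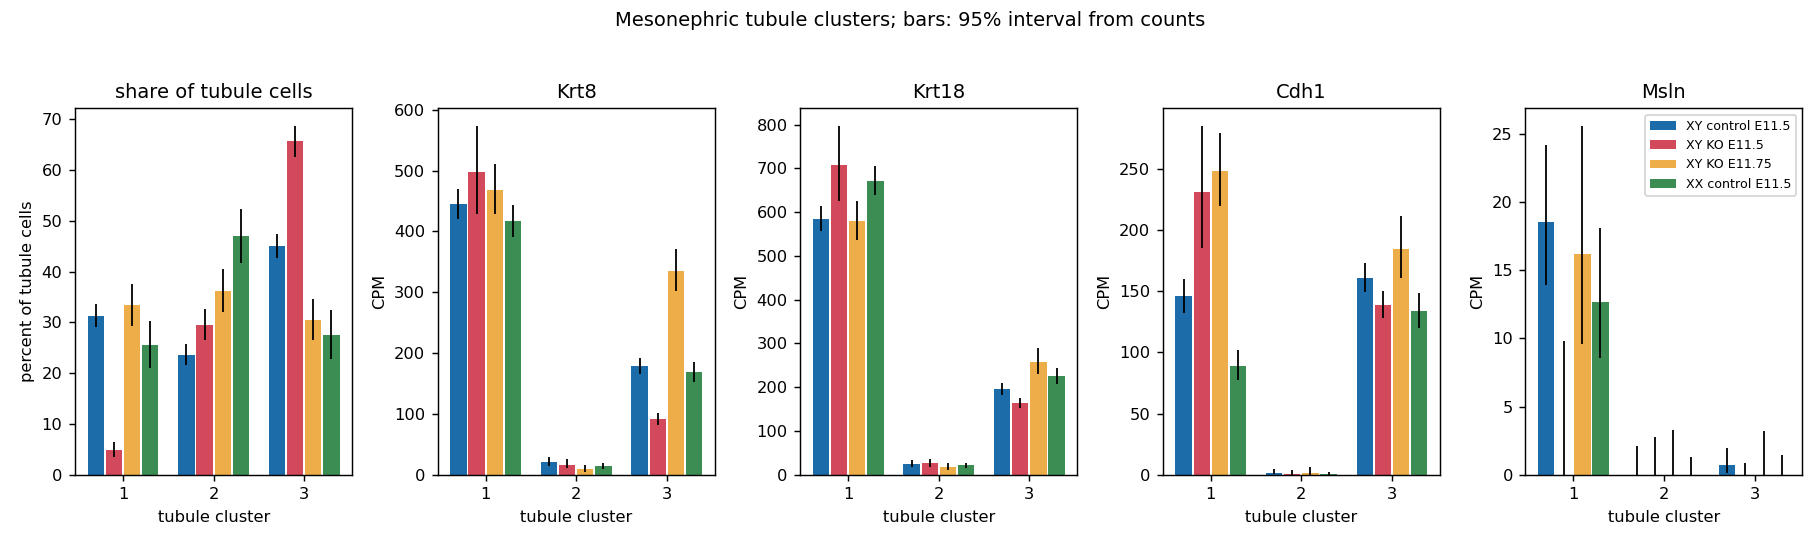
Levels (CPM) of Krt8, Krt18, Cdh1 and Msln in the 3 mesonephric tubule clusters of each sample, with 95% Poisson intervals, and the share of each sample's tubule cells in each cluster (percent) with 95% Clopper-Pearson intervals. Cluster 1 has the highest Krt8 and Krt18 and nearly all Msln, and makes up 4.78% of tubule cells in E11.5 KO against 25.5% to 33.4% in the other samples.

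The third comparison sets each sample against the XY control within each epithelium. All 3 share the XY control, so they are not independent of each other. Over all genes tested the median log2 ratio was -0.10, 0.14 and -0.12 in coelomic epithelium of the samples compared, E11.5 KO first and XX control last, and -0.07, 0.13 and -0.11 in mesonephric epithelium, and the ratios below should be read relative to these. No tested marker changed at least 2-fold in any of the 6 comparisons. In coelomic epithelium 1.15%, 2.77% and 2.09% of genes did, and in mesonephric epithelium 1.03%, 4.16% and 0.794%. With 5 markers tested and shares of this size, the count of 0 is no result about the markers.

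**Figure D5:**
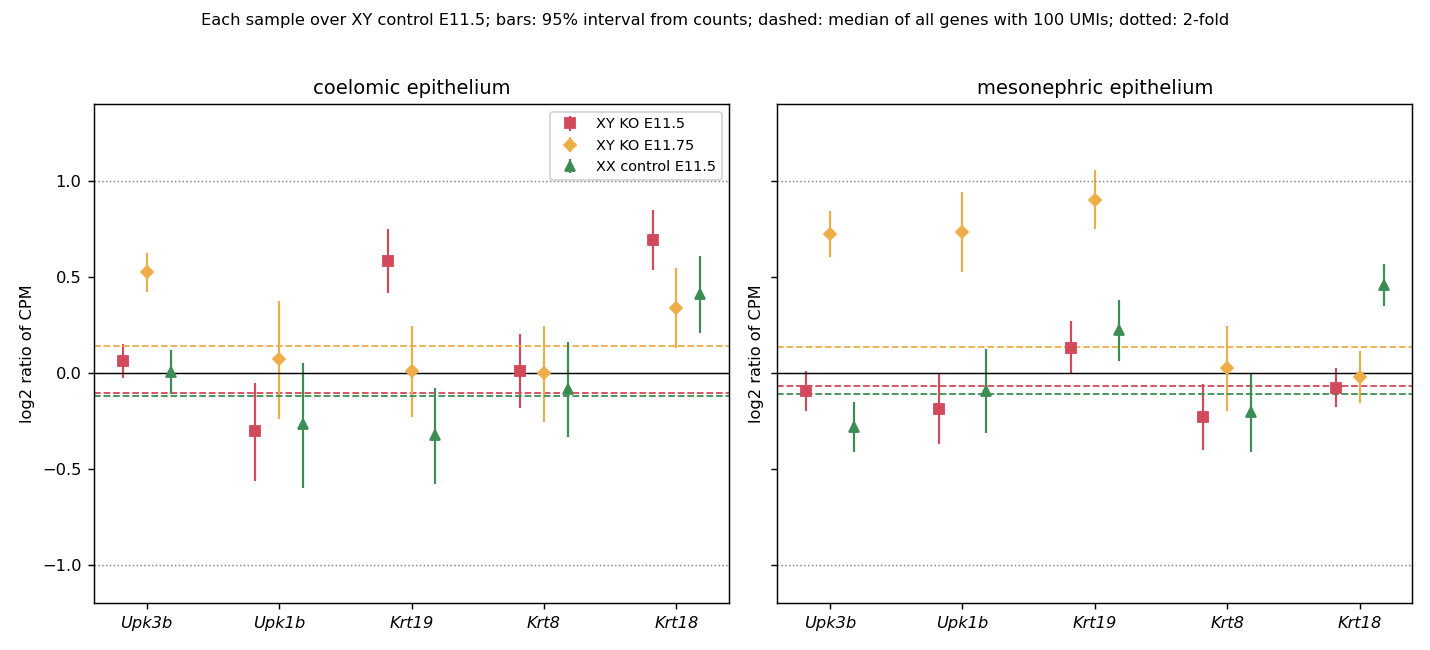
Log2 ratio of the 5 detected markers in E11.5 KO, E11.75 KO and XX control over the XY control, in coelomic and in mesonephric epithelium; bars are 95% intervals from counts and the marks show the median of all genes tested. No point passes 1 or -1, the E11.5 KO points of Krt18 and Krt19 are raised in coelomic epithelium, and those of Upk3b, Upk1b and Krt19 are raised in mesonephric epithelium of E11.75 KO.

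Below 2-fold, Krt18 and Krt19 were higher in coelomic epithelium of E11.5 KO. Krt18 was 1.62 times the control (log2 ratio 0.69, 0.54 to 0.85) and Krt19 1.5 times (0.58, 0.42 to 0.75), while Krt8 was at 1.01 times (0.01, -0.18 to 0.20). Krt10, another type I keratin, was at 31.3 against 41.4 CPM (-0.41, -0.62 to -0.19), and the median over the 6 listed keratins tested was 0.09. Technical runs did not overlap between E11.5 KO and the XY control. Krt18 was at 90.7 and 77.9 CPM in the KO runs and at 50.9 and 53.3 in the XY control runs. Krt19 was at 72.7 and 70.3 against 52.1 and 42.3. The XX control runs held 78.9 and 61.6 CPM of Krt18, both above the XY control runs, and the first also above the second KO run. Of Krt19 these XX runs held 48.6 and 29.9 CPM. Marker UMIs of other cell types also differed between these pools. Those of pre-supporting cells summed to 294 CPM in the KO and 235 in the control, those of germ cells to 28.8 and 62.8, those of immune cells to 4.61 and 20.9, and those of erythroid cells to 301 and 535, and their part in the keratin values was not tested. In mesonephric epithelium of the same sample Krt18 was at 0.95 times the control (-0.08, -0.18 to 0.02) and Krt19 at 1.09 times (0.13, -0.01 to 0.27).

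Other gonadal types were then examined, after these values had been seen. Pre-supporting cells of E11.5 KO held 73.3 CPM of Krt18 against 37.3 in the control (0.97, 0.76 to 1.19), and 14.1 against 6.98 CPM of Krt19 (1.01, 0.51 to 1.53). The Krt19 ratio passed 2-fold. Ratios in these other types are given without the median or share of all genes beside them. The Krt19 difference varied with the technical run, at 16 and 12.3 CPM in the KO runs and 4.56 and 9.68 in the control runs, whereas Krt18 stood at 74.2 and 72.5 against 35.5 and 39.3. Markers of other cell types differed between these pools too, and their part was not tested. In the KO and the control they summed to 29.7 and 217 CPM for Sertoli cells, 33.3 and 104 for adrenal cortex, 25.4 and 63.3 for germ cells, 5.97 and 20.8 for immune cells, 295 and 515 for erythroid cells and 259 and 209 for interstitial progenitors, while those of pre-supporting cells stood at 1504 and 1508. Krt18 was also higher in interstitial progenitors, at 51.9 against 30.5 CPM (0.76, 0.47 to 1.07), and in supporting-like cells, at 94.8 against 53.4 CPM (0.83, 0.52 to 1.14). In mesonephric mesenchyme the ratio of Krt18 was 0.15 (0.05 to 0.24). In E11.75 KO the log2 ratios of Krt18 over the XY control were 0.03 in pre-supporting cells (-0.25 to 0.31), 0.10 in interstitial progenitors (-0.30 to 0.49) and -0.02 in supporting-like cells (-0.58 to 0.48). In supporting-like cells the XX control runs held 60.7 and 98.2 CPM of Krt18, against 54 and 52.6 in the XY control runs. In interstitial progenitors these were 28.3 and 24.3 against 29.5 and 31.8, and in pre-supporting cells 41.3 and 43 against 35.5 and 39.3. Over the 3 samples compared, the log2 ratio of Krt19 in pre-supporting cells was 0.40 to 1.01. In coelomic epithelium of E11.75 KO the ratio of Krt18 was 0.34 (0.13 to 0.55), and in that of the XX control 0.41 (0.21 to 0.61). Relative to the median of all genes tested these were 0.20 and 0.54, against 0.80 in E11.5 KO, and all 3 ratios share the XY control.

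In E11.75 KO the uroplakins and Krt19 were higher in mesonephric epithelium. Upk3b was 1.65 times the XY control (0.72, 0.61 to 0.84), Upk1b 1.66 times (0.73, 0.53 to 0.94) and Krt19 1.87 times (0.90, 0.75 to 1.06), whereas Krt8 was at 1.02 and Krt18 at 0.99 times. In coelomic epithelium of this sample Upk3b was 1.44 times the control (0.52, 0.42 to 0.63), and Upk1b and Krt19 were at 1.05 and 1.01 times (log2 ratios of 0.07 and 0.01, which TMM factors turned to -0.09 and -0.15). The sample had 1 run, so no technical spread is known for it. Its median mitochondrial share over all cells was 5.67%, against 4.26% in the XY control. Besides the neural crest and Sertoli markers, summed markers in its mesonephric epithelium and in that of the control stood at 77.7 and 53.2 CPM for endothelial cells, 727 and 537 for interstitial progenitors, 35.7 and 78.9 for germ cells and 4.74 and 20.8 for immune cells. The part of these differences in the marker values was not tested. Among the 12 listed mesothelial genes, 1 of 8 tested in mesonephric epithelium changed at least 2-fold, against 4.16% of all genes, which was Muc16, a mucin of mesothelial surfaces, at 155 against 39.9 CPM (1.96, 1.74 to 2.19). Muc16 was also higher in coelomic epithelium, at 48.4 against 19.1 CPM (1.34, 1.06 to 1.63). The median log2 ratio of the mesothelial list was 0.74 in mesonephric epithelium and 0.31 in coelomic epithelium, against 0.13 and 0.14 over all genes tested. Klf5, an epithelial regulator, was at 31 against 13.8 CPM in mesonephric epithelium (1.16, 0.73 to 1.60). Lhx9, a gonadal gene, was also higher there, at 42.3 against 15.5 CPM (1.45, 1.06 to 1.85), and Twist1, a mesenchymal regulator, lower, at 47.1 against 102 CPM (-1.12, -1.39 to -0.86). Over the 7 lists 4 of 43 genes tested changed 2-fold in this pool, against the same 4.16% of all genes. Of all genes called in it, 284 were higher and 101 lower. In coelomic epithelium of E11.75 KO 1 of 47 listed genes, Muc16, changed 2-fold, against 2.77% of all genes, which is no result about the lists. There 199 of all genes called were higher and 81 lower. In E11.5 KO the counts were 0 of 47 in coelomic and 0 of 45 in mesonephric epithelium, beside 1.15% and 1.03% of all genes, and counts of 0 are no result at shares of this size.

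In the XX control Krt18 was also higher in mesonephric epithelium, at 298 against 217 CPM (0.46, 0.35 to 0.57), and Upk3b lower, at 170 against 206 CPM (-0.28, -0.41 to -0.15). Markers of other cell types were lower in this pool than in the XY control, at 257 against 643 CPM for erythroid cells, 24.3 against 53.2 for endothelial cells, 23.8 against 40.5 for Sertoli cells and 403 against 537 for interstitial progenitors, and their part was not tested. Upk3b in coelomic epithelium was at 191 against 190 CPM (0.01, -0.11 to 0.12). Of 47 listed genes tested in coelomic epithelium of the XX control 1 differed 2-fold, against 2.09% of all genes. It was Snai1, a repressor of Cdh1, at 5.47 against 13.8 CPM (-1.32 on the log2 scale, from 26 and 149 UMIs). A count near the share of all genes is no result about the lists. Of all genes called there, 188 were lower and 21 higher. Summed markers in that pool and in the XY control stood at 637 and 883 CPM for interstitial progenitors and 43.7 and 70.7 for endothelial cells. They were 17.9 and 45.2 for Sertoli cells, 188 and 535 for erythroid cells but 16 and 14.4 for adrenal cortex. Their part was not tested. Krt8 was at -0.08 (-0.33 to 0.16) in coelomic and -0.20 (-0.41 to 0.00) in mesonephric epithelium. Counting intervals understate even the technical spread. Over 30 pairs of runs of the 5 markers in both epithelia the median absolute log2 difference was 0.11 and the largest 0.70, and the interval excluded 0 in 9 of 30 pairs.

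Related genes from the fixed lists were compared across the same cell types. Krt7, a type II keratin of simple epithelia, was at 61.4 to 84.3 CPM in coelomic epithelium, 60.5 to 103 in mesonephric epithelium and 6.98 to 15.8 in pre-supporting cells. Of 10 keratins listed, 5 could be compared between coelomic epithelium and pre-supporting cells, and 2 of them, Krt7 and Krt19, were at least 2-fold higher in coelomic epithelium in all samples, against 4.33% of all genes. Krt5, a keratin of stratified epithelia, reached at most 0.21 CPM in coelomic epithelium. Among 8 mesothelial genes tested, 5 were at least 2-fold higher in coelomic epithelium than in pre-supporting cells (Lrrn4, Muc16, Bnc1, Aldh1a2 and Ezr), against the same 4.33% of all genes, with a list median of 1.87 against 0.05 over all genes. None of the 8 differed at least 2-fold between the epithelia in all samples. Genes of other lists were also at least 2-fold higher in coelomic epithelium than in pre-supporting cells, against the same 4.33%. Of 7 mesenchymal genes and repressors of Cdh1 these were Fn1 and Cdh11, with a list median of 0.74. Of 7 gonadal coelomic genes they were Tcf21 and Cbx2, with a list median of -0.15. The lists were chosen with earlier results of these data known, and cell types were named by marker genes. Counts set beside the share of all genes therefore describe the lists and test nothing.

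Some listed genes separated the epithelia in the other direction from Upk1b and Krt18. Of 8 gonadal coelomic genes tested, 4 were at least 2-fold higher in coelomic epithelium in all samples (Gata4, Nr5a1, Lhx9 and Tcf21), against 1.72% of all genes. Lhx9, Gata4 and Nr5a1 are themselves markers of gonadal coelomic epithelium, and the authors named cell types by marker genes. The count is therefore a description and no test of the list. Lhx9, a homeobox factor needed to form the gonad, was at 557 to 843 CPM in coelomic epithelium and 10.5 to 42.3 in mesonephric epithelium, and Gata4 at 120 to 159 against 2.79 to 14.2. Among 13 junction genes tested, Dsg2, a desmosomal cadherin, was higher in coelomic epithelium, at 24.5 to 33 against 4.08 to 12 CPM, and of 14 tested against pre-supporting cells 1, Cdh3, was higher in coelomic epithelium. Single genes of lists of this size are no result about junctions, beside 1.72% and 4.33% of all genes. Of 7 mesenchymal genes and repressors of Cdh1, Snai2 was higher in coelomic epithelium, at 47.9 to 84.7 against 17.2 to 26.9 CPM, and Twist1 was lower, at 21.5 to 38.3 against 47.1 to 132. Beside 1.72% and 1.69% of all genes, these single genes are no result about that list either. Epithelial regulators (Grhl2, Ovol1, Ovol2, Esrp1, Esrp2, Elf3, Klf5) were all under the minimum in coelomic epithelium.

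At the level of single cells, detection was sparse. After each cell was thinned to 3000 UMIs, with shallower cells left out (per sample, 1 to 354 in coelomic and 0 to 475 in mesonephric epithelium), Upk3b was detected in 35%, 39.6%, 45.2% and 35.8% of coelomic cells, against 0.98% to 3.5% of endothelial cells. Without thinning these were 44.3%, 52.6%, 54.8% and 76.1%, at median depths of 4613, 5192.5, 4429.5 and 18694.5 UMIs. In mesonephric epithelium the thinned shares were 39.6%, 38%, 59.3% and 33.6%. Krt18 was detected in 14.1%, 21.5%, 16.8% and 18.3% of coelomic cells and in 42.9%, 41%, 46.1% and 46.5% of mesonephric epithelial cells, against 2.54% to 8.75% of endothelial cells.

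Detection of some genes differed between coelomic cells with and without an Upk3b UMI. In coelomic epithelium of the XY control Krt19 was detected in 15.1% of cells with an Upk3b UMI and in 9.83% of those without, and Upk1b in 10.4% and 4.71%. Lrrn4, a mesothelial gene, was detected in 22.1% and 12.9%. For Krt8 the shares were 11.2% and 11.1%. The intervals of both kinds of cells were apart in all 3 XY samples for Upk1b and Lrrn4, but for Krt19 in the XY control alone. In the XX control, with 229 thinned cells, they overlapped for each of these genes. Nr5a1, a gonadal factor that marks cells entering the gonadal lineages, was detected less often in cells with an Upk3b UMI in E11.75 KO, at 15.7% (12 to 19.9) against 29.6% (25.3 to 34.2). In the other samples its intervals overlapped, at 75 of 651 cells with and 185 of 1210 without in the XY control, 68 of 661 and 131 of 1007 in E11.5 KO, and 8 of 82 and 16 of 147 in the XX control. Of the 5 detected markers, none had a UMI in 35% to 44.2% of thinned coelomic cells and in 11% to 26.3% of mesonephric epithelial cells, so an absent UMI does not mark a cell as negative.

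Over the 48 pools of cell type and sample with at least 50 cells, the genes most like each marker were found by Pearson's r of log2(CPM + 1) among 11857 genes. These pools share libraries and depth, and r is given as a description. Upk3b was nearest to Tmem151a (0.93), Tm4sf5 (0.92) and Bnc1 (0.92), Upk1b to Upk3b (0.90), Muc16 (0.88) and Krt19 (0.88), and Krt19 to Crb2 (0.91), Upk3b (0.91) and Bnc1 (0.88). Krt8 and Krt18 were each other's nearest gene (0.91). Emx2 (0.89) and Bcam (0.89) followed for Krt8, and Bcam (0.87) and Lama5 (0.86) for Krt18. Cdh1 was nearest to Crb3 (0.93), Epcam (0.92) and Amn (0.91), and its r with Upk3b was -0.22. Crb3, Epcam and Amn had their highest median over samples in the tubules, followed by germ cells. Msln had fewer than 1000 UMIs and was left out.

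Because the KO samples lack the miR-17~92 microRNAs, the longest annotated 3′ UTR of each marker was searched for matches to the seeds of its members (the families of miR-17, miR-18, miR-19 and, last, miR-92). None of the 7 held a match of 8 bases, and 2 held a match of 7 bases, both to miR-18. Over 17305 genes 12.33% held an 8-base match and 43.29% a match of either kind. The microRNA is shown with its seed (bases 2 to 8) in capitals, and the sites with the match in capitals.
mmu-miR-18a-5p (chr14:115043867-115043889, plus strand): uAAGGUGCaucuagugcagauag
Cdh1 site (chr8:106669707-106669736, plus strand): gtgtggcggcgcGCACCTTtaagcccagca
Upk3b site (chr5:136044317-136044346, plus strand): ccagttcatcttCACCTTAgccagacttca
Upk3b, with 1 such site, was at 1.04 times the control in coelomic epithelium of E11.5 KO (0.06, -0.03 to 0.15). Krt18 and Krt19, the markers that were higher there, have 3′ UTRs of 66 and 103 bases and held no match. Matches describe the letters only, and whether loss of the microRNAs changed any marker, directly or not, was not tested.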

How the data were processed

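The authors used Cell Ranger 6.1.1 and the mm10 genome to align and count reads, per the labels. The deposited table holds UMI counts per gene and cell, all of them whole numbers. The deposited annotation gives sample, cell type and mitochondrial percent, computed by the authors. Low-quality cells and doublets were removed by the authors before deposit, with different filters for XY and XX cells, and clusters were named after integration in Seurat. No cell was removed here for CPM, and cells with fewer UMIs than the thinned depth were left out of the shares of cells. Coelomic epithelium is deposited as epithelial cells, and pre-supporting cells as bipotential progenitors.

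For each cell type of a sample, UMIs were added up and divided by the total of all genes (CPM). Intervals were exact at 95%: Poisson for CPM, Clopper-Pearson for shares and binomial for log2 ratios, which used a prior count of 0.5. PCR copies were already collapsed to UMIs, and intervals cover counting error only. Since each group had 1 sample, no p-value was computed; edgeR 4.0.16 (R 4.3.3) gave TMM factors as an alternative scaling only. A gene was called when CPM differed at least 2-fold with at least 100 UMIs over both pools. Genes were named as the 7 markers, the 3 most alike to each and members of fixed lists of related genes, markers of other cell types included. Markers and lists were chosen with earlier results of these data known. Scripts (Python 3.11.15, scipy 1.17.1) were tested on simulated data. Genes were placed with the GENCODE M21 annotation of GRCm38, the assembly behind mm10, and promoter and microRNA sequences came from RefSeq, which matched 3 of the 7 markers for promoters. Alternatives were other scalings, a prior of 5, no minimum of UMIs, single runs, deeper cells and other thinning. Leaving out single samples, the tubule clusters and the further gonadal types were added after seeing the data.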

Additional observations from a re-analysis of the deposited data

Results flagged for a closer look

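Krt19 in the XX control over the XY control had opposite signs in the epithelia, with a log2 ratio of -0.32 (-0.58 to -0.08) in coelomic epithelium and 0.22 (0.06 to 0.38) in mesonephric epithelium. The difference between them was not tested, since each group had 1 sample. In coelomic epithelium the technical runs of the XX control differed by more than this, at 48.6 and 29.9 CPM, with the XY control runs at 52.1 and 42.3 CPM. In mesonephric epithelium the XX runs stood at 122 and 140 CPM and the XY control runs at 119 and 105 CPM. Sex, breeding, depth and cell filtering cannot be told apart in this comparison.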

How the results depend on the processing

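No paired analysis was possible because each group had 1 sample. Counts of markers called 2-fold were the same in most of 84 alternatives, and those that changed are given here. With no minimum of UMIs the count was 1 in coelomic epithelium of E11.5 KO (Msln, 1 UMI), 1 in that of the XX control (Cdh1, 3 UMIs) and 2 in mesonephric epithelium of the XX control (Msln and Cdh1), all from counts of 3 or fewer in that sample; with the second runs only it was 1 in mesonephric epithelium of E11.75 KO (Krt19). Leaving out each sample in turn, 2 to 3 markers were lower in coelomic than in mesonephric epithelium (3 without E11.5 KO), 0 to 0 higher, and 3 to 3 higher than in pre-supporting cells. The shares of all genes given above are for all 4 samples and do not apply to these counts. Among log2 ratios of markers under alternatives, 584 moved by less than their counting interval, and 46 moved by more. Many of the 584 had little room to move. They include Msln and Cdh1, whose intervals are wide, and E11.75 KO, whose only run stood in both single-run settings. For the 5 other markers, 15 of 70 ratios moved past their interval with the first run only and 12 of 70 with the second. The sign differed in 46 cases, in 45 of which the interval of the reported ratio held 0. The other was Upk3b, coelomic over mesonephric epithelium of the XY control, at 0.018 with the second run only. Among the former, Krt8 in mesonephric epithelium of E11.75 KO over the XY control went from 0.03 to -0.34 in cells with at least 5000 UMIs. Ratios of Msln and Cdh1, which rest on few UMIs, made up 20 of the 46 sign changes. Among the other 5 markers the largest shift was 1.32, for Upk3b over pre-supporting cells in the XX control with the first run only, where 10 UMIs were counted. TMM factors shifted ratios by at most 0.18. Shares of cells with a UMI depend on depth, and with no thinning or another depth 115 moved by more than their interval and 53 by less. Depth limits statements on Msln and Cdh1 in both epithelia, where 0 to 20 UMIs were counted.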

Other observations

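One cluster of mesonephric mesenchyme, the fourth in the deposited annotation, shared part of the marker pattern of the epithelia. It held 25.7, 41.8, 54.7 and 16.5 CPM of Upk3b, and 158, 187, 166 and 240 CPM of Krt18. Krt19 stood at 36.8, 55.3, 65.6 and 34.9 CPM, while Upk1b was at 3.67 to 5.97 CPM. The same cluster held Pax2 at 79.7 to 118 CPM and Cdh6 at 216 to 296 CPM, but Gata3 at 3.67 to 24.9 CPM and Cdh1 at most at 0.86 CPM. The cluster was singled out after its values had been seen, and whether its cells include doublets was not tested.

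In germ cells Cdh1 was at 68 CPM in E11.75 KO (55.7 to 82.3) against 32.3 (24.9 to 41) in E11.5 KO, 31.7 (27.6 to 36.1) in the XY control and 15.8 (12 to 20.4) in the XX control. The counting intervals of E11.5 KO and the XY control overlapped. Each group was 1 sample, so these differences were not tested.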
